A study of Mus musculus with 4 samples.

Results

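The genes described here are 10 enzymes of glutathione and antioxidant metabolism, taken by symbol from 20194 genes listed in either of the deposited tables: Gclm, Gclc, Gss, Gsr, Gpx1, Gpx4, Txnrd1, Nqo1, Hmox1 and Sod2. All 10 were listed at both stages and all 10 passed the filter on low values, so none was lost to it. The set was chosen by the high Gclm ratio between knockout and wild type, so the genotype values below are a description, carry no test and support nothing further. RNA was sequenced from C57BL/6 mouse brain endothelial cells, the cells that line the vessels of the brain, in 4 groups of 1 library each. The groups were UCP2f/f;Tie2-cre (ECKO) and wild type (WT) at embryonic day 18 (E18), and ECKO and WT at embryonic day 15 (E15). In ECKO mice, Cre driven by the Tie2 promoter acts on floxed Ucp2 alleles; this promoter is active in endothelial cells and also in most blood cells, so deletion need not be limited to endothelium. The labels do not say whether a library came from 1 embryo or a pool, nor whether WT mice carry a floxed allele or Cre.

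Glutathione is a small thiol that cells hold at high concentration and use to reduce peroxides. Its synthesis starts with glutamate-cysteine ligase, a pair of a catalytic subunit (Gclc) and a modifier subunit (Gclm) that raises the activity of the catalytic one, and ends with glutathione synthetase (Gss). Glutathione peroxidases (Gpx1, Gpx4) spend it, and glutathione reductase (Gsr) regenerates it with NADPH, while thioredoxin reductase (Txnrd1) serves a parallel thiol system. Many of these genes are known targets of the transcription factor NRF2 (gene Nfe2l2), which the adaptor KEAP1 marks for degradation until oxidants or electrophiles modify it. Ucp2 encodes an uncoupling protein of mitochondria that has been linked to the release of superoxide, the substrate of the mitochondrial dismutase made from Sod2.

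The upstream sequences of the genes are shown because antioxidant response elements, the sites that NRF2 binds with small MAF proteins, lie near the start of several of them. RefSeq promoters on GRCm38.p6 were at hand for 7 of the 10 genes (12 start sites). The 250 bases upstream of each were searched for the core TGACNNNGC on both strands (GCNNNGTCA on the other), with any overlap allowed. It was found once upstream of Gclm and once upstream of 1 of 3 Txnrd1 start sites, in capitals below, and was not in these windows of Gss, Nqo1, Gpx1, Gpx4 and Sod2. Of 32851 promoters in the table, 10.2% hold the core in the same 250 bases.
Gclm, chr3:122245307-122245556, plus strand: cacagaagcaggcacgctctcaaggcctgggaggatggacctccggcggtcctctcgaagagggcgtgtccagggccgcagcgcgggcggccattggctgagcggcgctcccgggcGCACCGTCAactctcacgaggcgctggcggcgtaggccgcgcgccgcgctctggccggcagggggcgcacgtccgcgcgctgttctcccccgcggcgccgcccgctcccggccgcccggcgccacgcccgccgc
Txnrd1, chr10:82858956-82859205, plus strand: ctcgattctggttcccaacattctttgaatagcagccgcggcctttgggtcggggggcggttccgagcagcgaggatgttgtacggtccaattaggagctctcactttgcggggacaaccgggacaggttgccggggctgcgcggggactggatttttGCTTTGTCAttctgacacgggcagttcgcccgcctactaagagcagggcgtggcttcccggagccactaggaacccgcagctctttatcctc
Between the match and the start site lie 125 bases in Gclm and 83 bases in Txnrd1. A match is a run of letters and not a shown binding site.

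A feature that Gpx1, Gpx4 and Txnrd1 share is selenocysteine, the selenium amino acid that ribosomes place at an in-frame TGA codon. The stretches around that codon are shown because they set these 3 genes apart from the other 7, whose coding sequences read from GENCODE M21 hold no in-frame TGA before the stop codon. The capitals mark the selenocysteine codon, which is codon 47 of 201 in Gpx1, 129 of 253 in Gpx4 and 612 of 613 in Txnrd1. Each gene was read in its longest complete coding transcript, here Gpx1-201, Gpx4-201 and Txnrd1-205, and codon numbers are given for those transcripts only.
Gpx1: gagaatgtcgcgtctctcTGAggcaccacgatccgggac
Gpx4: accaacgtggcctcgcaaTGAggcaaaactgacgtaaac
Txnrd1: atcctccagtctggctgcTGAggttaa

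The libraries held 21992660 (ECKO) and 19075407 (WT) reads in genes at E18, and 16328300 (ECKO) and 15542930 (WT) at E15. Levels are given as CPM, read counts scaled to the library total after TMM normalization, and with 1 library per group they have no replicate error. Ucp2, the targeted gene, stood at 156 CPM in ECKO against 366 CPM in WT at E18, and at 157 CPM in ECKO against 264 CPM in WT at E15. Endothelial markers were abundant in all 4 libraries (10 of 10 listed markers detected, 14279 to 18144 CPM summed), with Cldn5 and Pecam1 among them. Mural cell markers summed to 12117 (ECKO) and 9718 (WT) CPM at E18 and to 4700 (ECKO) and 7012 (WT) CPM at E15, with none of 8 at 0. Rgs5 alone held most of these sums, 9125 (ECKO) and 7204 (WT) CPM at E18 and 3271 (ECKO) and 4912 (WT) CPM at E15. Macrophage and microglia markers summed to 165 (ECKO) and 89.7 (WT) CPM at E18 and to 312 (ECKO) and 643 (WT) CPM at E15, with Tmem119 at 0 reads in WT at E18. Of these sums Lyz2 alone held 88.2 (ECKO) and 47.1 (WT) CPM at E18 and 14.7 (ECKO) and 33.6 (WT) CPM at E15. Xist reads were present in ECKO at E18 (547) and Ddx3y reads in WT at E18 (5826), while both E15 libraries held Xist reads (2109 in ECKO and 2549 in WT). At E18 sex and genotype therefore cannot be told apart. Between the WT libraries Xist also changed, from 2549 reads at E15 to 0 at E18, so sex and stage cannot be told apart in that pair. In such bulk RNA, fewer cells of a type and less RNA per cell cannot be told apart either.

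Per kilobase of merged exons, the only scale on which levels of different genes are compared here, the set spanned a wide range (mean over the 4 libraries, exon lengths from GENCODE M21). Gpx4, the peroxidase that reduces lipid peroxides in membranes, was highest at 53.4 CPM per kilobase, followed by Hmox1, the haem-degrading enzyme, at 45.9 and Sod2 at 26.3. Gsr stood at 10.8, Gpx1 at 9.97 and Txnrd1 at 6.50 CPM per kilobase, and Gsr lay above Gpx1 in both ECKO libraries. In WT, Gsr lay below Gpx1 at E18 (7.14 against 10.6) and was nearly level with it at E15 (8.30 against 8.47). Gss stood at 1.92, Nqo1, a quinone reductase, at 1.21 and Gclc at 0.734 CPM per kilobase. For Gclm a mean hides 1 high library: it had 2.45 (ECKO) and 1.43 (WT) CPM per kilobase at E18 and 10.9 (ECKO) and 2.13 (WT) at E15, and in WT at E18 it lay below Gss (1.68) and Nqo1 (1.51). Nqo1 and Gclc also had the fewest reads, 26 to 76 per library, so their ratios carry the widest intervals. Each interval printed is an exact 95% one by the Clopper-Pearson method, on the log2 ratio without the pseudocount, and covers counting error only, since reads without molecular identifiers are not independent molecules. Retrocopies of Gpx4 are annotated (Gpx4-ps1 and Gpx4-ps2), and reads shared with them may have been lost or moved by the counting, so the Gpx4 level is uncertain.

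**Figure D1:**
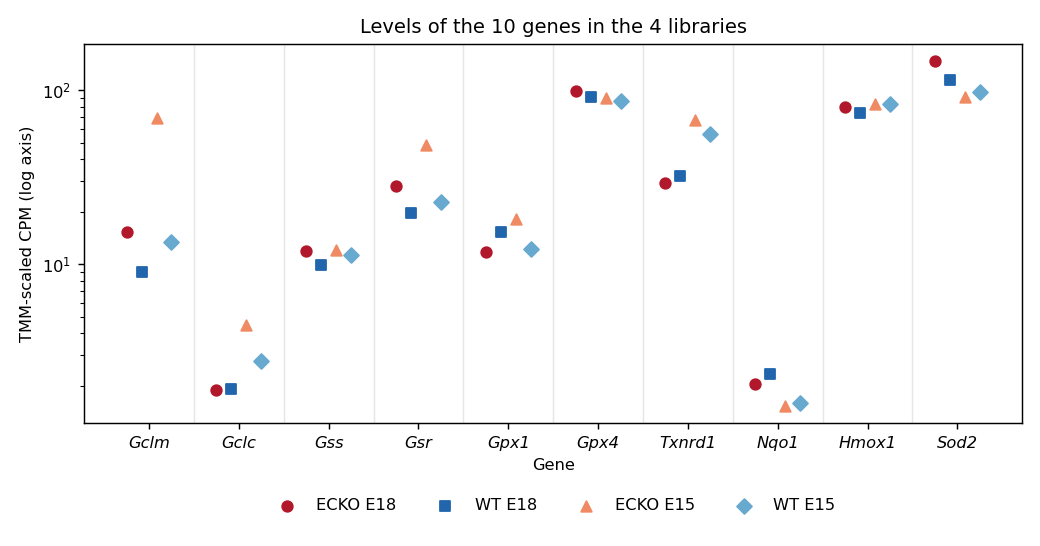
TMM-scaled CPM on a log axis of the 10 genes in the 4 libraries, 1 point per library, with ECKO left of WT and E18 left of E15. Gclm in ECKO at E15 (68.9 CPM) stands far above its other 3 libraries (9.02 to 15.4 CPM), while Gpx4 and Hmox1 hardly vary.

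The modifier subunit of glutamate-cysteine ligase was higher in ECKO at both stages, most so at E15. Gclm (ENSMUSG00000028124, chromosome 3, 122245557 to 122270732) had 325 reads in ECKO and 165 in WT at E18, and 1169 reads in ECKO and 217 in WT at E15. On the CPM scale these are 15.4 in ECKO and 9.02 in WT at E18, and 68.9 in ECKO and 13.4 in WT at E15. The ECKO library at E15 stood apart from the other 3. The log2 ratio of ECKO to WT, with a pseudocount of 1 CPM, was 0.71 at E18 (interval 0.50 to 1.05) and 2.28 at E15 (interval 2.15 to 2.58). The E18 ratio minus the E15 ratio was -1.57 on the log2 scale, a difference that was not tested. In the order of levels, ECKO at E18 and WT at E15 were neighbours whose interval held 0 (-0.05 to 0.46), while the other neighbours differed beyond counting error. Of 12633 genes measured at E15, 20 had a higher ratio than Gclm, and of 12349 measured at E18, 752 had. Gclm shares 4.71% of its exon bases with Gm17494 on the opposite strand, which had 4 reads in ECKO and 3 in WT at E18, and 3.88% with the pseudogene Gm6061 on the same strand.

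Gclc (ENSMUSG00000032350, chromosome 9, 77754535 to 77794485), the catalytic partner, was weakly expressed. It had 40 reads in ECKO and 35 in WT at E18 (1.89 and 1.91 CPM), and 76 reads in ECKO and 45 in WT at E15 (4.48 and 2.77 CPM). The log2 ratio was -0.01 at E18 (interval -0.71 to 0.68) and 0.54 at E15 (interval 0.14 to 1.26), so ECKO lay above WT beyond counting error at E15 and no difference was detectable at E18 at this depth. Per length, Gclm exceeded Gclc 4.86-fold in ECKO (interval 3.50 to 6.94) and 2.82-fold in WT (1.95 to 4.19) at E18. At E15 the same ratio of levels was 9.21 in ECKO (7.30 to 11.8) and 2.89 in WT (2.09 to 4.07). The modifier transcript was thus in excess in all 4 libraries, and most so in the ECKO library at E15.

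Gss (ENSMUSG00000027610, chromosome 2, 155563181 to 155592810), the last enzyme of synthesis, was nearly level. It had 11.9 CPM in ECKO and 9.95 CPM in WT at E18, and 12.1 CPM in ECKO and 11.3 CPM in WT at E15. The intervals of its log2 ratio held 0 at E18 (-0.02 to 0.55) and at E15 (-0.20 to 0.39), and all its neighbours in the order of levels had intervals that held 0. Acss2, on the opposite strand, shares 6.68% of the Gss exon bases and had 134 to 215 reads, so a small part of the Gss reads is uncertain.

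Glutathione reductase was also higher in ECKO at both stages. Gsr (ENSMUSG00000031584, chromosome 8, 33652523 to 33698163) had 592 reads in ECKO and 360 in WT at E18 (28.0 and 19.7 CPM), and 820 reads in ECKO and 371 in WT at E15 (48.3 and 22.9 CPM). Both ECKO libraries lay above both WT libraries, as they also did for Gclm and for the nearly level Gss. The share of all genes with this order was not computed. The log2 ratio was 0.49 at E18 (interval 0.32 to 0.70) and 1.05 at E15 (interval 0.90 to 1.26), just past 2-fold. Gclm and Gsr were the only genes of the 10 called higher at E15, where a call is a 2-fold ratio, and none was called lower. Among all 12633 genes measured at E15, 6.71% were called, 3.54% as higher and 3.17% as lower. At E18 none of the 10 reached 2-fold, while 6.92% of 12349 genes did, 2.93% as higher and 3.98% as lower. With a pseudocount of 5 CPM, Gclm stayed called at E15 and Gsr did not.

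The 2 peroxidases differed: Gpx1 in ECKO was below WT at E18 and above it at E15, and Gpx4 was nearly level. Gpx1 (ENSMUSG00000063856, chromosome 9, 108338903 to 108340343), the peroxidase of cytosol and mitochondria, had 248 reads in ECKO and 280 in WT at E18 (11.7 and 15.3 CPM), and 309 reads in ECKO and 198 in WT at E15 (18.2 and 12.2 CPM). Its log2 ratio was -0.36 at E18 (interval -0.63 to -0.13) and 0.54 at E15 (interval 0.32 to 0.84), so the ECKO library was the lower one at E18 and the higher one at E15. Gpx4 (ENSMUSG00000075706, chromosome 10, 80047166 to 80056439) had 99.7 CPM in ECKO and 91.7 CPM in WT at E18, and 89.8 CPM in ECKO and 86.8 CPM in WT at E15. With 1408 to 2107 reads per library, the intervals were narrow: the log2 ratio was 0.12 at E18 (0.03 to 0.21) and 0.05 at E15 (-0.06 to 0.15). The highest Gpx4 level exceeded the lowest only 1.15-fold.

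Txnrd1 (ENSMUSG00000020250, chromosome 10, 82833951 to 82897712), the cytosolic thioredoxin reductase, separated the stages more than the genotypes. It had 616 reads in ECKO and 585 in WT at E18 (29.2 and 32.0 CPM), and 1142 reads in ECKO and 906 in WT at E15 (67.3 and 55.8 CPM). Both E18 libraries lay below both E15 libraries, as for Gclc and Hmox1, while for Gpx4, Nqo1 and Sod2 both lay above. The share of all genes with such an order was not computed. The log2 ratio of ECKO to WT was -0.13 at E18 (interval -0.30 to 0.03) and 0.26 at E15 (interval 0.14 to 0.40).

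Nqo1 and Hmox1, which are among the genes most often used to read out NRF2, had ratios near 0 at both stages. Nqo1 (ENSMUSG00000003849, chromosome 8, 107388225 to 107403206) had 43 reads in ECKO and 43 in WT at E18 (2.04 and 2.35 CPM), and 26 in ECKO and 26 in WT at E15 (1.53 and 1.60 CPM). Its intervals were wide and held 0 at E18 (-0.85 to 0.44) and at E15 (-0.91 to 0.78), so no difference was detectable at this depth. Hmox1 (ENSMUSG00000005413, chromosome 8, 75093621 to 75100589) had 1692 reads in ECKO and 1354 in WT at E18 (80.1 and 74.0 CPM), and 1422 reads in ECKO and 1360 in WT at E15 (83.8 and 83.8 CPM). Its log2 ratio was 0.11 at E18 (interval 0.01 to 0.22) and 0.00 at E15 (interval -0.11 to 0.11). Macrophages are a known source of Hmox1, and their markers summed to less in ECKO than in WT at E15 while Hmox1 was level. At E18 these markers summed to more in ECKO (165 against 89.7 CPM in WT), where the log2 ratio of Hmox1 was 0.11. The part of macrophages in the Hmox1 level was not tested.

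Sod2 (ENSMUSG00000006818, chromosome 17, 13007839 to 13018119), which turns superoxide into hydrogen peroxide in the mitochondrial matrix, was higher in ECKO at E18 and about level at E15. It had 3101 reads in ECKO and 2110 in WT at E18 (147 and 115 CPM), and 1547 reads in ECKO and 1590 in WT at E15 (91.1 and 98.0 CPM). Its log2 ratio was 0.35 at E18 (interval 0.27 to 0.43) and -0.10 at E15, where the interval ended just below 0. The direction at E18 was the opposite of that of Gpx1, and so was the direction at E15.

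**Figure D2:**
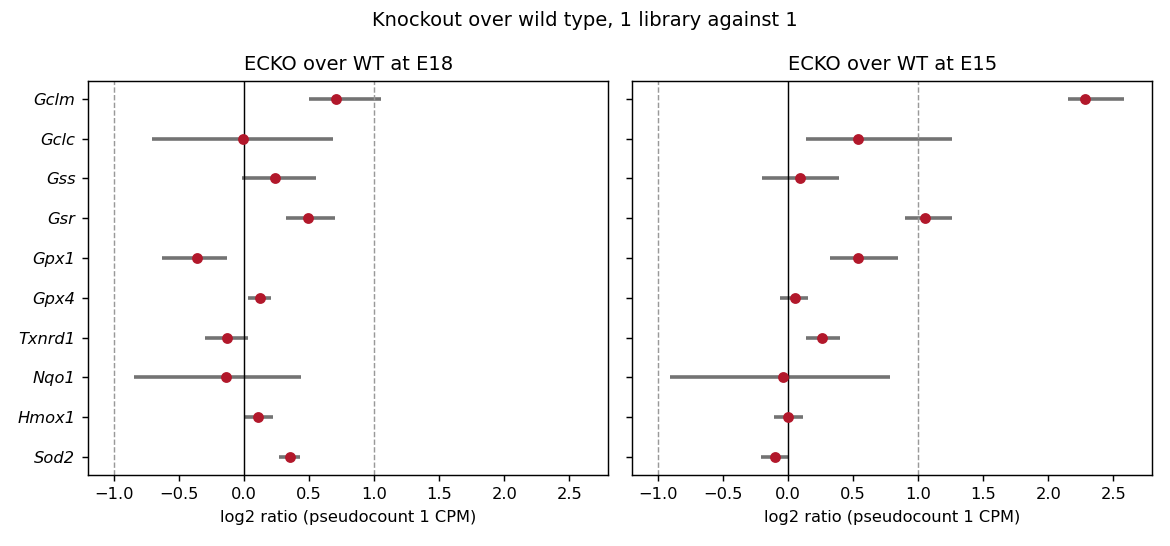
Log2 ratio of ECKO to WT (dots, pseudocount of 1 CPM) with 95% counting intervals (bars) for the 10 genes at E18 (left) and E15 (right), 1 library against 1. Dashed lines mark 2-fold; Gclm (2.28) and Gsr (1.05) lie past it at E15, and no gene does at E18.

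Across the 10 genes the median log2 ratio was 0.12 at E18, with 6 above 0 and 4 below, and 0.18 at E15, with 7 above 0 and 3 below. The median over all measured genes was 0.00 at both stages. Counting intervals lay wholly above 0 for 5 genes and wholly below 0 for 1 at each stage. The genes above 0 in this sense were Gclm, Gsr, Gpx4, Hmox1 and Sod2 at E18 and Gclm, Gclc, Gsr, Gpx1 and Txnrd1 at E15, so Gclm and Gsr were the 2 found at both. The share of all measured genes with such intervals was not computed. The intervals cover counting error only, so these counts are not read as a trait of the 10 genes.

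The stages were compared with an additive edgeR quasi-likelihood test on all 4 libraries, with genotype as a second term and adjustment over 13406 genes. It called 122 genes higher (0.910%) and 58 lower (0.433%) at E18, 1.34% in all. None of the 10 genes passed it. Of the 10, 3 had an unadjusted p under 0.05, as had 16.7% of all genes tested, and DESeq2 called 2 of them, Gclm and Txnrd1, and 5.65% of the 12626 genes to which it gave an adjusted p. The test has 1 residual degree of freedom, and the 2 genotypes stand in for replicates, so its p-values do not measure the spread between embryos. Xist was present in WT at E15 and absent in WT at E18, so sex changed along with stage in the WT pair, which enters this test. Txnrd1 came closest, with a log2 difference of -1.01 between E18 and E15 and an adjusted p of 0.0669. It was lower at E18 in 2 of 2 genotypes, by log2 -1.18 (interval -1.35 to -1.06) in ECKO and -0.79 (-0.96 to -0.65) in WT.

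Gclm stood at a log2 difference of -1.39 (edgeR adjusted p 0.136), with -2.09 in the ECKO pair (interval -2.34 to -1.98) and -0.52 in the WT pair (interval -0.87 to -0.27). The ratio of ECKO to WT at E15 brought Gclm into the set. Its ECKO library enters this estimate and the ECKO pair, and its WT library enters this estimate and the WT pair. Neither pair is therefore free of that choice. Gsr had -0.51 (adjusted p 0.364), with -0.76 in the ECKO pair (interval -0.94 to -0.63) and -0.21 in the WT pair, where the interval ended just below 0. Sod2 had 0.46 (adjusted p 0.242) and was higher at E18 in both pairs, by 0.68 (interval 0.60 to 0.78) in ECKO and 0.23 (interval 0.14 to 0.33) in WT. Gclc had -0.89 (adjusted p 0.653) and Nqo1 0.48 (adjusted p 0.866), both on few reads. Gpx4 (0.12), Hmox1 (-0.12), Gss (-0.11) and Gpx1 (-0.16) had the smallest estimates, with adjusted p from 0.781 to 0.916 in edgeR. For Gpx1 the pairs pointed opposite ways, with -0.59 in ECKO and 0.30 in WT. These stage pairs share their libraries with the genotype ratios above and are not separate evidence.

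**Figure D3:**
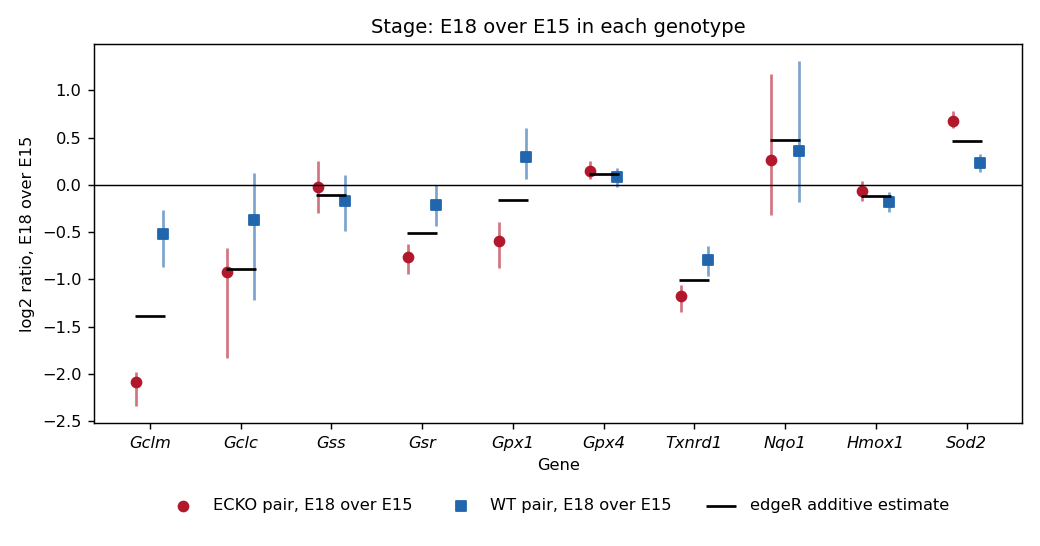
Log2 ratio of E18 to E15 in the ECKO pair (circles) and the WT pair (squares), with 95% counting intervals, and the additive edgeR estimate (black dash) for each of the 10 genes. Txnrd1 lies below 0 in both pairs (-1.18 and -0.79), and Gclm lies far lower in the ECKO pair (-2.09) than in the WT pair (-0.52).

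In the wider redox network, list medians stayed between -0.10 and 0.33, beside a median of 0.00 over all genes. Calls in these lists are to be read beside the shares of all genes called, 6.92% at E18 and 6.71% at E15. Among genes that supply or break down glutathione, 22 were measured, with a median log2 ratio of -0.10 at E18 (8 above 0, 14 below) and 0.03 at E15 (13 above 0, 9 below). Slc3a2, the heavy chain of the cystine importer, stood at 2273 (ECKO) and 2022 (WT) CPM at E18 and 2192 (ECKO) and 1811 (WT) CPM at E15. Slc7a11, its light chain for cystine and a known NRF2 target, had 2.22 (ECKO) and 2.79 (WT) CPM at E18 and 2.47 (ECKO) and 1.60 (WT) CPM at E15. The 1 gene called in this list was Cbs, which starts the route from homocysteine to cysteine: it was lower in ECKO at both stages, with 66 against 145 reads at E18 (log2 -1.11, interval -1.79 to -0.91) and 19 against 85 reads at E15 (log2 -1.56, interval -3.03 to -1.50). Ggct, which acts in glutathione breakdown, had log2 ratios of -0.62 at E18 and -0.83 at E15.

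Of the other glutathione peroxidases, Gpx3, Gpx7 and Gpx8 were measured, with a median of 0.33 at E18 and -0.07 at E15. Gpx3, a secreted form, had 500 reads in ECKO and 241 in WT at E18 (log2 0.80, interval 0.62 to 1.07), and 489 reads in ECKO and 491 in WT at E15. Glutathione transferases had a median of 0.01 at E18 and 0.20 at E15 over 13 measured genes at each stage. The call among them was Gstm6 at E18 (13 reads in ECKO and 43 in WT, log2 -1.05), a member of a family of close copies and therefore uncertain.

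In the thioredoxin, glutaredoxin and peroxiredoxin list, 15 of 19 measured genes lay above 0 at E18 (median 0.14) and 7 of 19 at E15 (median -0.03). Prdx1, the main cytosolic peroxiredoxin, was at 654 (ECKO) and 589 (WT) CPM at E18 and at 604 (ECKO) and 609 (WT) CPM at E15. Txndc5, a disulfide isomerase of the endoplasmic reticulum, was called higher at E15 with 1016 reads in ECKO and 421 in WT (log2 1.18) and had 732 reads in ECKO and 413 in WT at E18 (log2 0.60). Srxn1, the sulfiredoxin that repairs peroxiredoxins, had 40 reads in ECKO and 21 in WT at E18, and 13 in ECKO and 40 in WT at E15. Its log2 ratio was 0.43 at E18 (interval -0.07 to 1.56) and -0.97 at E15 (interval -2.71 to -0.75).

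Catalase and the other dismutases had a median of 0.06 at E18 and 0.17 at E15 over 4 genes. Cat, which destroys hydrogen peroxide in peroxisomes, stood at 702 (ECKO) and 623 (WT) CPM at E18 and 674 (ECKO) and 594 (WT) CPM at E15, log2 ratios of 0.17 and 0.18. Sod3, the extracellular dismutase, had 233 CPM in ECKO and 174 CPM in WT at E18 (log2 0.42), and 71.3 CPM in ECKO and 91.0 CPM in WT at E15 (log2 -0.35).

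Among regulators of the response, Nfe2l2 itself had 215 CPM in ECKO and 231 CPM in WT at E18 (log2 -0.10), and 194 CPM in ECKO and 213 CPM in WT at E15 (log2 -0.13). Keap1 had log2 ratios of 0.31 at E18 and 0.34 at E15, and Bach1, a repressor at the same DNA sites, -0.41 (interval -0.53 to -0.30) at E18 and -0.55 (interval -0.66 to -0.44) at E15. The list of NRF2 and its regulators had a median of 0.09 at E18 (12 measured) and -0.05 at E15 (13 measured), and its call was the weakly expressed Nfe2l3 at E15 (10 reads in ECKO and 47 in WT, log2 -1.29). Other NRF2 target genes split evenly, with 11 of 22 above 0 at E18 and 11 of 21 at E15, medians of 0.01 at both and no call in either direction. For a list this short, no call is not far from the all-gene shares of 6.92% at E18 and 6.71% at E15. Fth1, the ferritin heavy chain that stores iron, stood at 5373 (ECKO) and 4497 (WT) CPM at E18 and 3533 (ECKO) and 2572 (WT) CPM at E15. Osgin1 had log2 ratios of -0.64 at E18 and 0.25 at E15.

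Genes of NADPH supply had medians of -0.07 at E18 (15 measured) and -0.04 at E15 (13 measured). Their 1 call was Mthfd2 at E18, a mitochondrial folate enzyme, with 299 reads in ECKO and 108 in WT (log2 1.13, interval 0.94 to 1.59). Haem and iron genes had medians of 0.08 at E18 and 0.07 at E15 over 18 genes, quinone reductases 0.04 and 0.10 over 8, and no gene of these lists was called. Selenoproteins and the factors that make them had medians of 0.16 at E18 (15 of 21 above 0) and -0.04 at E15 (10 of 22 above 0). Selenoo, a mitochondrial selenoprotein, was called higher at E15 with 260 reads in ECKO and 54 in WT (log2 1.91), and had 23 reads in ECKO and 37 in WT at E18 (log2 -0.53). Mitochondrial handling of peroxide and superoxide had medians of 0.07 at E18 (11 measured) and -0.06 at E15 (12 measured), and its call was Ucp2 itself at E18.

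**Figure D4:**
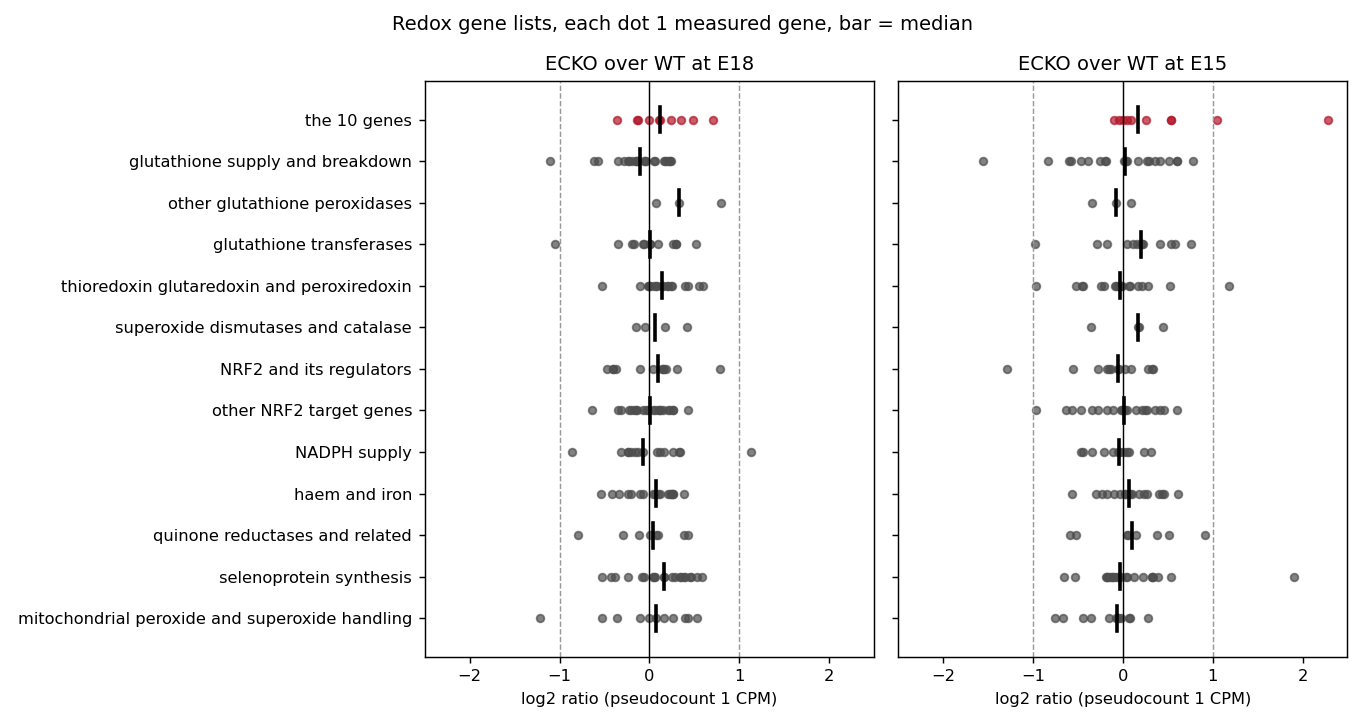
Log2 ratio of ECKO to WT for each measured gene (dots) of the 10 enzymes and 12 redox lists at E18 (left) and E15 (right), with the median as a bar and dashed lines at 2-fold. List medians lie between -0.10 and 0.33 at E18 and between -0.07 and 0.20 at E15.

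Between the stages, 5 of 145 tested genes of these lists passed the edgeR test (3.45%, beside 1.34% of all genes), all higher at E18. Anpep, an aminopeptidase of the cell surface, rose by log2 2.23 (adjusted p 0.0278), Sod3 by 1.32 (adjusted p 0.0361) and Fth1 by 0.71 (adjusted p 0.0332). Gstm1 (log2 1.27) and Gstm7 (log2 1.16) each had an edgeR adjusted p of 0.0220 and may share reads as close copies. All 5 kept their direction under 10 alternatives. With stage as the only term and all 4 libraries, none of the 5 passed (adjusted p 0.0605 to 0.153). The fits that leave out a library also have stage as the only term, since 3 libraries leave no residual degree of freedom beside genotype, so a call lost there cannot be laid to the library alone. Over all 10 alternatives, Anpep remained called in 6, Gstm1 in 7, Gstm7 in 5, Sod3 in 5 and Fth1 in 3. Without the ECKO library at E15 none of the 5 passed (edgeR adjusted p 0.115 to 0.207). Without the ECKO library at E18, Anpep (0.0870), Sod3 (0.0879), Gstm7 (0.0701) and Fth1 (0.275) did not pass, and without the WT library at E18 Anpep (0.0604), Gstm1 (0.0577), Gstm7 (0.0577) and Fth1 (0.103) did not. Without the WT library at E15, Gstm7 (0.0605) and Fth1 (0.246) did not pass. Anpep is also known from mural cells, whose markers summed to more in both E18 libraries than in both E15 libraries; their part in its value was not tested. Without TMM scaling, Sod3 and Fth1 each had an adjusted p of 0.0606.

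The genes whose pattern over the 4 libraries was most like that of Gclm were sought among 10019 genes averaging 5 CPM or more, by Euclidean distance between centred log2 profiles. The 5 nearest were Wrnip1 (distance 0.17), Cpe (0.25), Zfp622 (0.26), Ash2l (0.27) and Mgat2 (0.29), and none belongs to the redox lists. Wrnip1 had 6.77 CPM in ECKO and 4.15 CPM in WT at E18, and 29.4 CPM in ECKO and 5.73 CPM in WT at E15. Cpe had 26.0 CPM in ECKO and 17.1 CPM in WT at E18, and 101 CPM in ECKO and 20.2 CPM in WT at E15. All 5, like Gclm, were highest in the ECKO library at E15, which follows from how they were sought. With 4 points a profile carries little information.

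Markers of cell types and of stress also differed between the same libraries. At E18 the median log2 ratio of ECKO to WT for macrophage and microglia markers was 0.89 (10 of 11 above 0), the mural one 0.11, the neuronal one -0.75, the endothelial one 0.02 and the erythroid one -0.40. At E15 the ratios of ECKO to WT were below 0 for 11 of 12 macrophage and microglia markers (median -0.76), 7 of 8 mural markers (median -0.61) and 7 of 7 neuronal markers (median -1.03). Of 10 endothelial markers 8 were slightly below 0 (the lowest was Pecam1 at -0.15), with a median of -0.05. Above 0 were Cldn5 (0.31) and Flt1, which was called higher in ECKO (log2 1.15, 2827 against 1272 CPM). The endothelial sum at E15 was 16862 CPM in ECKO and 14279 CPM in WT. Fibroblast markers had a median of 0.15 at E18 over 4 genes and -0.74 at E15 over 3, and markers of radial glia and astrocytes -0.61 at E18 over 6 and 0.05 at E15 over 3. Mast cell (2.59 at E18, 1.14 at E15) and choroid plexus medians (1.77 at E18, -1.46 at E15) rest on 2 or 3 genes. For immediate early genes and stress genes of dissociation the median was -0.64 at E18 (10 of 12 below 0) and -0.13 at E15 (8 of 12 below 0). Erythroid markers had a median of 0.01 at E15. Between the stages, edgeR called 4 of 12 macrophage and microglia markers lower at E18 (median -2.82), Cx3cr1 (log2 -4.64, adjusted p 0.0253) and Csf1r (log2 -3.10, adjusted p 0.0142) among them. Lyz2 (log2 1.52, edgeR adjusted p 0.158) and Mrc1 (log2 0.44, edgeR adjusted p 0.785) went the other way without a call. Over all genes edgeR called 0.433% lower and 0.910% higher at E18. Of 12 immediate early and stress genes tested, 4 were called higher at E18, such as Egr1 (log2 1.52, adjusted p 0.0159), and 2 lower, Hspa1a (log2 -2.81, adjusted p 0.0159) and Hspa1b (log2 -3.66, adjusted p 0.0385). Cdh5 was called higher at E18 among endothelial markers (log2 0.97, adjusted p 0.0329), and the mural median was 0.76 with no call. The part of these markers in the values of the 10 genes was not tested.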

How the data were processed

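The authors deposited un-normalized read counts, 1 table per stage with genes under Ensembl identifiers, per the file headers. Bowtie2 2.2.3, TopHat2 2.0.12, HTSeq 0.6.0 and mm9 appear in the submitters' processing notes, without roles, and no source used here says whether counting used strand. Coordinates equal those of GENCODE M21 (GRCm38) for 90.1% of 20143 identifiers, so they are printed as deposited and read as GRCm38.

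Counts were divided by library totals times TMM factors (edgeR 4.0.16; 0.961 for ECKO and 0.959 for WT at E18, 1.040 for ECKO and 1.044 for WT at E15, from 16181 genes in both tables). Genotype ratios took genes with at least 1 CPM in a library and 50 reads over both, with a pseudocount of 1 CPM, which understates differences of weak genes. With 1 library per group these have no test. The stage test used glmQLFit and glmQLFTest with Benjamini-Hochberg adjustment at 0.05, on genes with at least 1 CPM in 2 libraries (common dispersion 0.110, prior degrees of freedom 6.13). DESeq2 1.42.0 served as an alternative. Genes named from each list were among its 5 with the largest ratios in a comparison or its 5 with the highest mean CPM; Slc7a11 was named outside this rule, after its values were seen. The 10 genes and all lists were chosen with earlier results of these data known.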

Additional observations from a re-analysis of the deposited data

Results flagged for a closer look

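Gpx1 and Sod2 had genotype ratios of opposite sign at the 2 stages, each with a counting interval on its own side of 0. For Gpx1 the log2 ratio of ECKO to WT was -0.36 at E18 and 0.54 at E15. For Sod2 it was 0.35 at E18 and -0.10 at E15, where the interval, which covers counting error only, ended just below 0. With 1 library per group the difference between the stages was not tested, and at E18 sex differs along with genotype.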

How the results depend on the processing

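Counts of called genes depended on how weak genes were treated. At E18, 854 genes were called between genotypes, against 130 with a pseudocount of 5 CPM, 1490 with no filter and 506 with a filter at 5 CPM. At E15, 848 were called, against 229, 1354 and 551 in the same order. Of 80 recomputed genotype ratios of the 10 genes, 79 moved by less than their counting error; Gclm at E15 was 2.01 with a pseudocount of 5 CPM.

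The stage test called 180 genes (67.8% of them higher at E18), against 102 without TMM scaling (52.0% higher, where the median of all genes was -0.13), 92 with no filter, 974 with a filter at 5 CPM, 713 with DESeq2 and 1 without the genotype term. Leaving out each library in turn, which also removes the genotype term for want of residual degrees of freedom, gave 5 to 147 calls (5 without the ECKO library at E15, 57 without ECKO and 55 without WT at E18). Such a fit leaves 1 library in an arm, which is assumed to vary like the others. With the filter at 5 CPM, edgeR's adjusted p was 0.0203 for Gclm and 0.00805 for Txnrd1, with DESeq2 0.0289 and 0.0126. The Gclm estimate was log2 -2.49 without the WT library at E15 and -0.13 without the ECKO library at E15. The ratio of ECKO to WT at E15 brought Gclm into the set, so none of these Gclm values is free of that choice. Over all alternatives the adjusted p ranged from 0.0203 to 0.960 for Gclm and from 0.00805 to 0.284 for Txnrd1. In these fits, which change both the library and the model, signs turned for Gsr (0.06) and Gpx1 (0.15) without the ECKO library at E15, for Gpx1 (0.01) without the ECKO library at E18 and for Gss (0.02) without the WT library at E18. With genotype held, Gsr was lower at E18 in the WT pair (-0.21). Gpx4 turned to 0.00 without TMM scaling. None of these estimates passed the threshold. The leave-one-out ranges were -2.49 to -0.13 for Gclm, -1.02 to 0.06 for Gsr, -0.43 to 0.15 for Gpx1, -0.24 to 0.02 for Gss and -1.14 to -0.87 for Txnrd1. Depth limits Gclc and Nqo1 most, with 26 to 76 reads per library. No paired analysis was possible because the groups share fewer than 2 replicate numbers.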
